A study of Homo sapiens with 8 samples.

Results

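Interferon-stimulated genes are the genes that a cell switches on when type I or type III interferon binds its receptors. Receptor-bound kinases then activate transcription factors, STAT2 and IRF9 among them, that bind the interferon-stimulated response element (ISRE) in front of these genes. Their products block viruses at entry, replication or release, sense double-stranded RNA, or attach the ubiquitin-like protein ISG15 to other proteins, and in tumour cells many of them are read as a sign of interferon signalling. The genes described here are a list of 52, chosen by name from this known biology, with earlier results of these data known. Of the 52 genes, 48 had values among the 12939 genes of the series. The other 4, IFI27, IFI44L, CMPK2 and TRIM22, are not analysed here.

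RNA-Seq was done on 8 libraries of cancer stem cells from MDA-MB-231, a human triple-negative breast cancer line. All cells carried a GFP reporter driven by the OCT4A promoter and a stable RFP vector with an shRNA, and the brightest cells for both colours were sorted and left overnight before RNA was taken. The groups were scramble shRNA (n = 3), CDH2 shRNA (n = 3), against N-cadherin, and Cx43 shRNA (n = 2), against the gap junction protein connexin 43. The CDH2 line was a selected clone, so a property of the clone and the effect of the knockdown cannot be told apart. The labels do not say whether libraries of a group came from separate cultures, so p-values may measure technical spread only. The targeted transcripts are not analysed here, so the knockdowns could not be checked in these values.

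The 3 scramble libraries were not independent of each other in the deposited values. Over the 12939 genes, scramble 1 lay on the midpoint of scramble 2 and scramble 3 with an SD of 0.00966 on the log2 scale, while scramble 2 and scramble 3 differed from each other with an SD of 0.277. Over the 48 genes the same SDs were 0.00789 and 0.273. For comparison, CDH2 1 lay off the midpoint of the other CDH2 libraries with an SD of 0.125 over all genes. Groups and replicate numbers leave 3 directions for the residuals of a model, and the values varied in 2. A test that counts 8 libraries therefore takes its spread over more information than the values hold. Each call is given below from the test of 8 libraries, then with the spread taken over 2 directions, and then without scramble 1. How this dependence arose was not tested. Every scramble SD below is over these 3 libraries, and every SE after ± is from the test of 8 libraries. The setting over 2 directions changes the spread only and still counts scramble 1 as a full library in the group mean.

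Line and marker genes were checked first. Of 13 line markers, 7 had values, and SOX2 and NANOG were among those without. VIM and CD44 were high, at 9.62 to 9.81 and 8.41 to 8.76 as log2(CPM + 1). KRT8 was at 7.99 to 8.61 and KRT18 at 8.14 to 8.78. ERBB2 was at 5.16 to 5.52, POU5F1 at 3.57 to 3.85 and EPCAM at 2.21 to 2.75. Of 12 immune cell markers, 3 had values (CD68, CSF1R and ITGAM), and of 7 fibroblast markers, 2 did (COL1A1 and PDGFRB). CSF1R was at 2.20 to 2.45 in scramble, 1.61 to 1.82 with CDH2 shRNA and 1.39 to 1.46 with Cx43 shRNA. CD68 was at 4.18 to 4.21, 4.21 to 4.49 and 3.76 to 4.08, and ITGAM at 2.75 to 2.83, 2.50 to 2.87 and 2.04 to 2.39. In the 8-library test CSF1R (-0.63), the fibroblast marker PDGFRB (-0.63) and the line marker EPCAM (-0.37) passed as lower in CDH2 knockdown, and CSF1R (-0.90) in Cx43 knockdown. None of these passed with the spread over 2 directions. Their part in the results below was not tested. In bulk RNA, fewer cells of a kind and less RNA per cell cannot be told apart. None of 10 interferon genes had values, so the ligands are not analysed here.

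The ISRE was searched in the RefSeq promoters (GRCh38.p14, 250 bases before to 50 after the start) as the letters GAAANNGAAA on both strands, because this is the site through which the genes are known to be induced. Of the 41 listed genes with a promoter window, 26 (63.4%) held a match, against 4.38% of 27305 genes. Matches are shown for 2 genes above and 3 below scramble in CDH2 knockdown, 5′ to 3′ on the strand of the gene, with the matched letters in capitals.
IFIT1, chr10:89392495-89392528, plus strand: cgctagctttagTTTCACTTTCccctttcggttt
IFIH1, chr2:162318822-162318855, minus strand: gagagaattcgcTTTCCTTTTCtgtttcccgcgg
IFI6, chr1:27672327-27672360, minus strand: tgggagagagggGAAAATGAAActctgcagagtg
BST2, chr19:17405739-17405772, minus strand: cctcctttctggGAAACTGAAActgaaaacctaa
LGALS3BP, chr17:78979960-78979993, minus strand: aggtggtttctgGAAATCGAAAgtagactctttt
The match stood in genes that were higher and in genes that were lower, and UBE2L6, the lowest gene, had none in its windows. Of the genes past the threshold in CDH2 knockdown in the 8-library test, 2 of the 2 higher and 5 of the 7 lower ones with a window held it, as did 17 of the 29 others. A match is a run of letters and not a measured binding site.

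In CDH2 knockdown the genes did not move as a block. Their median log2 fold change against scramble was -0.10, beside 0.01 for all genes, with 21 above 0 and 27 below, from -1.01 to 0.68. Fold changes are differences of log2(CPM + 1), and the added 1 makes them too small where a gene is near 0. In limma's test of all 8 libraries, with the replicate number as a block and Benjamini-Hochberg adjustment over all genes, 3 genes passed an adjusted p of 0.05 as higher, against 7.29% of all genes, and 8 as lower, against 6.98%. The higher ones were IFIT1, IFIT2 and IFIH1. The lower ones were UBE2L6, BST2, IFI6, IFI35, IRF7, LGALS3BP, IFITM1 and MX1. With the spread over 2 directions, 3 remained, UBE2L6, BST2 and IFI6, all lower, against 1.31% of all genes. None was then called higher, against 0.974% of all genes. Without scramble 1 none was called, against 0.0773% of all genes, and 11 of the 48 had an unadjusted p under 0.05, against 17.1% of all genes. The 3 that remained are also those past the larger fold change that the methods asked for, against 2.06% of all genes.

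**Figure D1:**
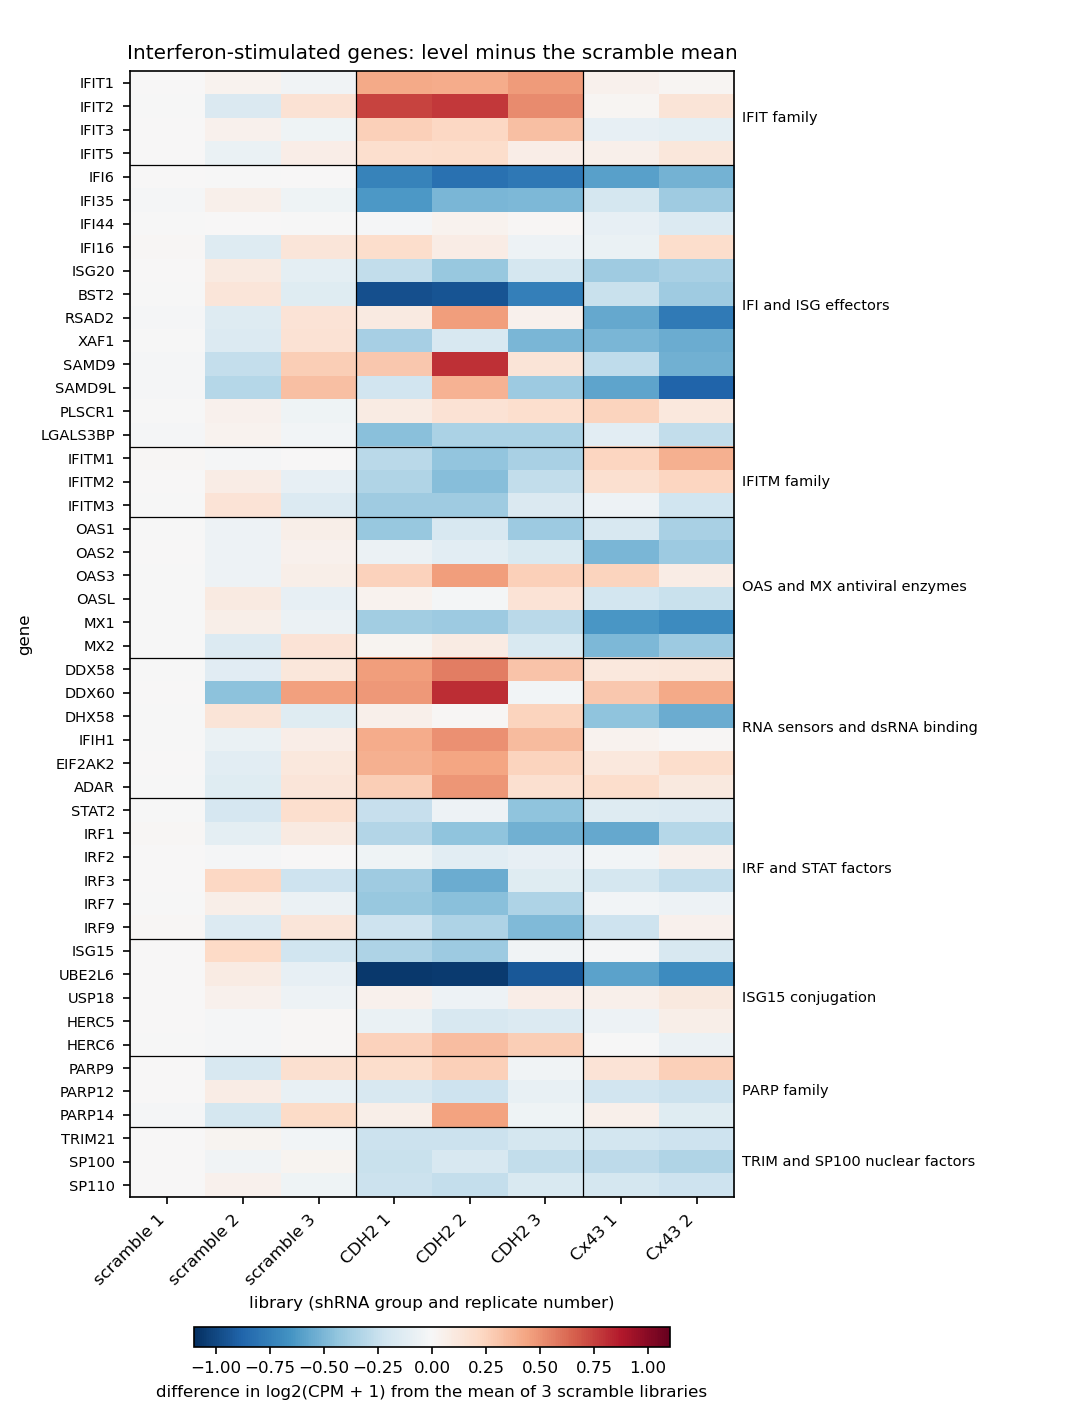
Level of 48 genes (vertical axis, by group of function) in 8 libraries (horizontal axis) as the difference in log2(CPM + 1) from the mean of the 3 scramble libraries, blue for lower and red for higher. The scramble 1 column is near white throughout because that library lies on the midpoint of scramble 2 and scramble 3; UBE2L6, BST2 and IFI6 are blue in all CDH2 libraries.

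UBE2L6, the E2 enzyme that carries ISG15, fell most. Its level was 5.70, 5.79 and 5.61 in scramble, 4.64, 4.65 and 4.77 in CDH2 knockdown, and then 5.11 and 5.01 in the Cx43 libraries, as log2(CPM + 1). The 3 groups did not overlap, and CDH2 was lowest. The log2 fold change in CDH2 knockdown was -1.01 ± 0.09 (SE), with limma adjusted p = 0.016, 0.0195 with the spread over 2 directions and 0.0737 without scramble 1. In Cx43 knockdown it was -0.64 ± 0.11, with limma adjusted p = 0.0585. The SE in CDH2 knockdown was 0.15 over 2 directions and 0.17 without scramble 1. ISG15 itself, the protein that is conjugated, had 7.84, 8.06 and 7.62 in scramble and 7.50, 7.44 and 7.80 in CDH2 knockdown, so the groups overlapped. HERC5, the main ISG15 ligase, was at -0.13 in CDH2 knockdown and 0.00 in Cx43 knockdown. HERC6, a relative of HERC5, was higher in every CDH2 library (4.82 to 4.90) than in scramble (4.55 to 4.58), with limma adjusted p = 0.0565. USP18, which removes ISG15 and restrains the interferon receptor, was at 0.02 and 0.08 in the 2 knockdowns.

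BST2, also called tetherin, holds budding virus at the cell surface. It was 5.42, 5.56 and 5.29 in scramble, 4.46, 4.47 and 4.67 in CDH2 knockdown, and then 5.18 and 5.03 in the Cx43 libraries. CDH2 libraries were lowest with no overlap, at -0.89 ± 0.12 (limma adjusted p = 0.0208, 0.03 over 2 directions and 0.105 without scramble 1). IFI6, a mitochondrial and endoplasmic reticulum protein, was 5.02, 5.01 and 5.02 in scramble, 4.28, 4.20 and 4.23 in CDH2 knockdown, and then 4.42 and 4.50 in the Cx43 libraries. Both knockdowns lay below scramble. Its change was -0.78 ± 0.07 in CDH2 knockdown (limma adjusted p = 0.016, 0.032 over 2 directions and 0.108 without scramble 1) and -0.55 ± 0.09 in Cx43 knockdown (limma adjusted p = 0.0534). In CDH2 knockdown the SE of IFI6 was 0.14 over 2 directions and 0.17 without scramble 1. For BST2 these were 0.16 and 0.18.

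The other effectors of the IFI and ISG group went both ways. IFI35 was 4.81 to 4.92 in scramble, 4.23 to 4.37 in CDH2 knockdown, and then 4.47 and 4.67 in the Cx43 libraries. Its change in CDH2 knockdown was -0.54 ± 0.10, with limma adjusted p = 0.0286, 0.0749 over 2 directions and 0.194 without scramble 1. LGALS3BP, a secreted glycoprotein, was 8.27, 8.32 and 8.25 in scramble and 7.82, 7.93 and 7.93 in CDH2 knockdown, at -0.39 ± 0.09 (limma adjusted p = 0.0412, 0.14 over 2 directions and 0.281 without scramble 1). PLSCR1, a phospholipid scramblase, was 4.18 to 4.27 in scramble, 4.31 to 4.41 in CDH2 knockdown, and then 4.34 and 4.47 in the Cx43 libraries, so both lay above scramble, but neither difference passed. SAMD9L, a growth-restricting factor, varied most between libraries of a group among the genes given by library, with 3.99 to 4.63 in scramble and 3.90 to 4.69 in CDH2 knockdown, and was lower at 3.42 and 3.72 in Cx43 knockdown. XAF1 shares exons with PRAL, an RNA of the opposite strand, and whether counting used strand is not given in the sources used here, so its value of -0.34 is uncertain. PRAL itself was at -2.11 in CDH2 knockdown (limma adjusted p = 0.0189) and at -1.27 in Cx43 knockdown. XAF1 was not the only listed gene with such an overlap. Exons of IRF1, IRF3, SP110 and MX1, among others, overlap annotated genes of the opposite strand. Exons of DDX58 and IFI6 overlap genes of the same strand, and those of IFIT2 and IRF9 overlap genes of both. The values of all these genes are uncertain in this respect, and the size of the effect was not tested. UBE2L6 and BST2 had no overlapping exons.

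**Figure D2:**
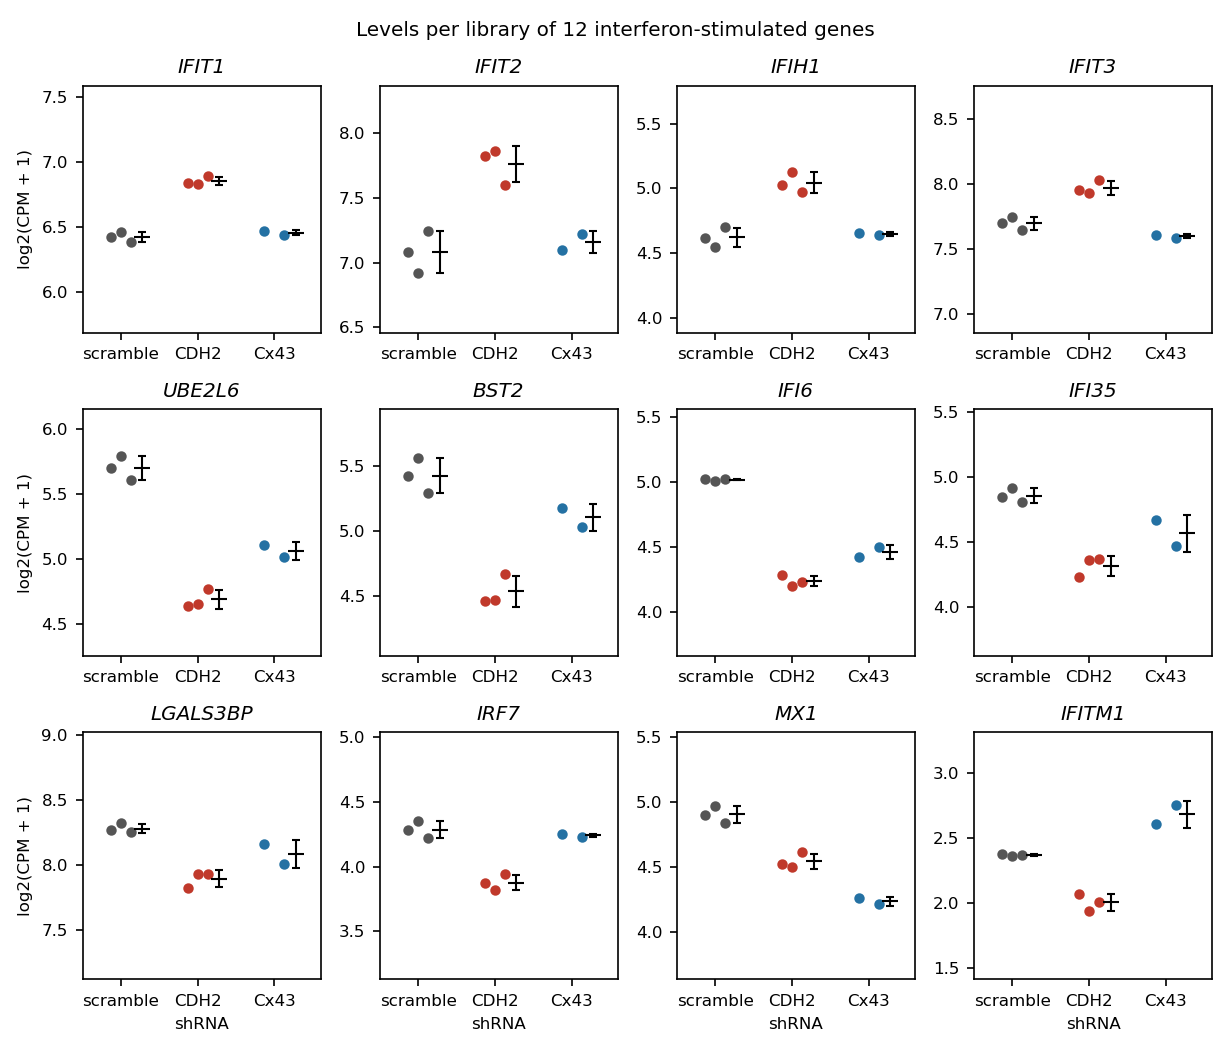
Level of 12 genes as log2(CPM + 1) (vertical axis, all panels to the same scale) in the scramble, CDH2 and Cx43 shRNA groups (horizontal axis), each point 1 library, with the mean and SD as a bar beside the points. UBE2L6, BST2 and IFI6 drop without overlap in CDH2 libraries, IFIT1, IFIT2, IFIH1 and IFIT3 lie above scramble, and IFITM1 lies below scramble in CDH2 and above it in Cx43 libraries.

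The IFIT genes lie together on chromosome 10 and encode antiviral proteins. They were the group furthest above scramble together with the genes that sense or bind double-stranded RNA. All 4 were above 0 in CDH2 knockdown, with a median of 0.35, and in all 4 no CDH2 library overlapped scramble, which held for 27.1% of all genes in this direction. IFIT2 was 7.08, 6.92 and 7.24 in scramble, 7.82, 7.86 and 7.60 in CDH2 knockdown, and then 7.10 and 7.22 in the Cx43 libraries. Its change was 0.68 ± 0.13, with limma adjusted p = 0.0323, 0.06 over 2 directions and 0.171 without scramble 1. IFIT1, the founding member, was 6.42, 6.46 and 6.38 in scramble, 6.84, 6.83 and 6.89 in CDH2 knockdown, and then 6.47 and 6.44 in the Cx43 libraries. It changed by 0.43 ± 0.07 (limma adjusted p = 0.0269, 0.108 over 2 directions and 0.244 without scramble 1). IFIT3, which binds IFIT1, was 7.70, 7.75 and 7.65 in scramble, 7.96, 7.93 and 8.03 in CDH2 knockdown, and then 7.61 and 7.59 in the Cx43 libraries, and did not pass in either. IFIT5 was 5.36 to 5.51 in scramble and 5.51 to 5.63 in CDH2 knockdown, so its groups all but touched.

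All 6 genes that sense or bind double-stranded RNA were above 0 in CDH2 knockdown, with a median of 0.39, and 1 passed the 8-library test. IFIH1, the sensor MDA5, was 4.62, 4.55 and 4.70 in scramble, 5.03, 5.13 and 4.97 in CDH2 knockdown, and then 4.66 and 4.64 in the Cx43 libraries. Its change was 0.42 ± 0.09, with limma adjusted p = 0.0371, 0.119 over 2 directions and 0.26 without scramble 1. DDX58, the sensor RIG-I, was 6.32, 6.20 and 6.45 in scramble and 6.78, 6.89 and 6.64 in CDH2 knockdown, again with no overlap, at 0.44 ± 0.11 (limma adjusted p = 0.0507). EIF2AK2, the kinase PKR, was 6.13 to 6.36 in scramble and 6.49 to 6.68 in CDH2 knockdown. ADAR, which edits double-stranded RNA, was 7.46 to 7.73 and 7.77 to 8.08. DDX60 overlapped scramble in CDH2 knockdown, at 0.42 ± 0.30 (limma adjusted p = 0.348). DHX58, the sensor LGP2, overlapped scramble in CDH2 knockdown and was lower in Cx43 knockdown, at 2.52 and 2.42 against 2.83 to 3.11, a difference of -0.49 ± 0.14 with limma adjusted p = 0.129.

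The IFITM genes, which encode membrane proteins that block virus entry, lay below scramble in CDH2 knockdown. IFITM1 was 2.38, 2.36 and 2.37 in scramble, 2.07, 1.94 and 2.01 in CDH2 knockdown, and then 2.61 and 2.76 in the Cx43 libraries. CDH2 was lowest and Cx43 highest, with no overlap. The change was -0.36 ± 0.08 in CDH2 knockdown (limma adjusted p = 0.0449, 0.156 over 2 directions and 0.309 without scramble 1) and 0.32 ± 0.10 in Cx43 knockdown (limma adjusted p = 0.154). IFITM2 had the same order, with 4.91 to 5.08 in scramble, 4.53 to 4.73 in CDH2 knockdown, and then 5.17 and 5.23 in the Cx43 libraries. The 3 IFITM genes are related in sequence, so the division of reads among them is uncertain.

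Of the antiviral enzymes, MX1, a GTPase that traps viral capsids, was 4.90, 4.97 and 4.84 in scramble, 4.52, 4.50 and 4.61 in CDH2 knockdown, and then 4.26 and 4.21 in the Cx43 libraries. It was lowest in Cx43 knockdown, and the 3 groups did not overlap. The change in CDH2 knockdown was -0.36 ± 0.08 (limma adjusted p = 0.0449, 0.16 over 2 directions and 0.308 without scramble 1). OAS3, which makes the 2-5A messenger that activates RNase L, was 4.87, 4.82 and 4.94 in scramble, 5.13, 5.34 and 5.14 in CDH2 knockdown, and then 5.12 and 4.96 in the Cx43 libraries. Both knockdowns lay above scramble, and neither difference passed.

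All 6 transcription factors of the pathway were below 0 in CDH2 knockdown, with a median of -0.35. IRF7, which amplifies interferon production, was 4.28, 4.35 and 4.22 in scramble, 3.87, 3.82 and 3.94 in CDH2 knockdown, and then 4.25 and 4.23 in the Cx43 libraries. Only the CDH2 libraries lay apart, at -0.40 ± 0.08 (limma adjusted p = 0.0359, 0.126 over 2 directions and 0.267 without scramble 1). IRF1, an early factor also induced by interferon gamma, was 6.56, 6.44 and 6.65 in scramble, 6.23, 6.11 and 6.02 in CDH2 knockdown, and then 5.99 and 6.24 in the Cx43 libraries. The log2 fold change of IRF1 was -0.43 in both knockdowns and did not pass. STAT2 and IRF3 overlapped scramble in CDH2 knockdown. In the last groups, SP100, a nuclear body protein, was 5.82 to 5.89 in scramble, 5.59 to 5.68 in CDH2 knockdown, and then 5.53 and 5.57 in the Cx43 libraries, and PARP12 was 5.54 to 5.70, 5.39 to 5.54 and 5.38 and 5.41.

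In counts of libraries, 11 of the 48 genes had every CDH2 library above every scramble library, against 27.1% of all genes, and 22 had every one below, against 24.8%. Both counts of the 48 were the same without scramble 1. This is not a separate check, because scramble 1 lay on the midpoint of the other scramble libraries. It lay outside them in 1 of the 48 genes and in 457 of all genes. Within replicate numbers 1, 2 and 3, the median difference of the genes from scramble was -0.08, -0.10 and -0.14. Without the replicate block the test called 27 of the 48, against 43.3% of all genes, and it then treats the removed run effect as if no information had been spent on it.

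In Cx43 knockdown the median log2 fold change was -0.13, beside 0.04 for all genes, with 17 above 0 and 31 below, from -0.73 to 0.36. No gene was called higher, against 0.417% of all genes, and 14 of the 48 had an unadjusted p under 0.05 in either direction, against 21.6%. MX1 was the 1 gene called lower, against 0.788% of all genes, at -0.67 ± 0.10 with limma adjusted p = 0.0464, and it also passed a fold change of 1.5, against 1.18%. With the spread over 2 directions its limma adjusted p was 0.129 and no gene was called in either direction, against 0.209% of all genes higher and 0.425% lower, with 10 of the 48 at an unadjusted p under 0.05, against 11.7%. Without scramble 1 it was 0.39, and 0.00773% of all genes were called, with 7 of the 48 at an unadjusted p under 0.05, against 6.93%. SAMD9L was at -0.73, RSAD2, an enzyme that makes a chain-terminating nucleotide, at -0.67, and UBE2L6 at -0.64, and none of these passed. In 23 genes both Cx43 libraries lay below every scramble library, against 21.4% of all genes, and in 5 both lay above, against 31.4%. Without the block 16 were called, against 24.3% of all genes.

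**Figure D3:**
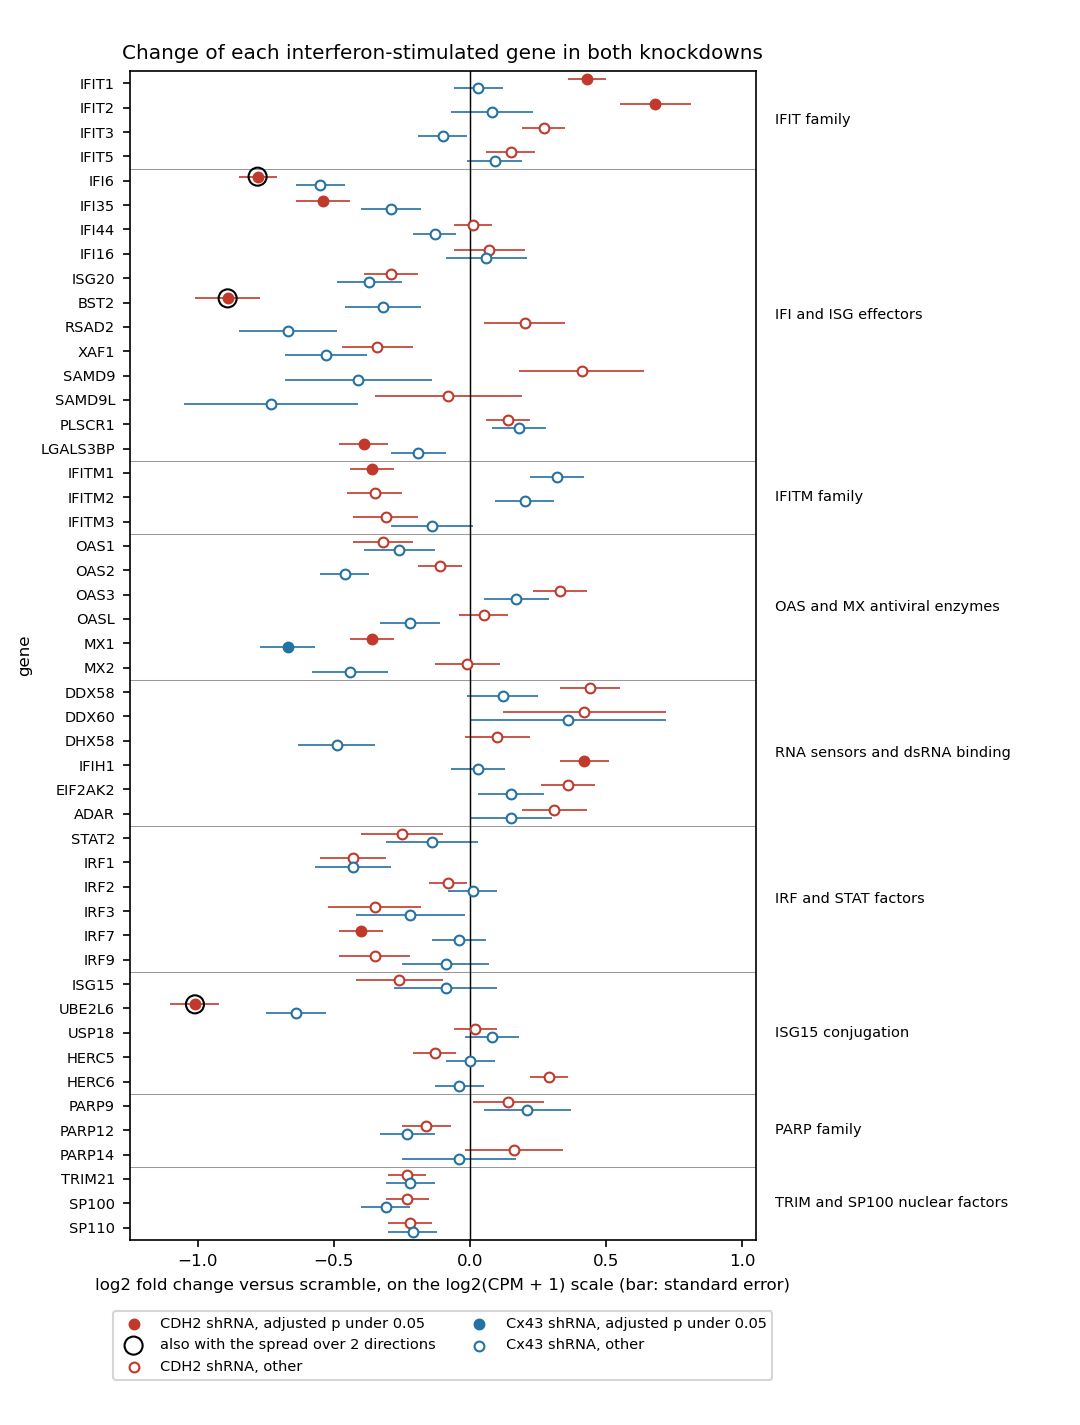
Log2 fold change against scramble on the log2(CPM + 1) scale (horizontal axis, bars are standard errors from the 8-library test) of each of 48 genes (vertical axis) in CDH2 (red) and Cx43 (blue) knockdown. Filled points passed an adjusted p of 0.05 in that test, and black rings mark UBE2L6, BST2 and IFI6, which also passed with the spread over 2 directions.

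The 2 knockdowns share the scramble libraries, so their changes against it are not independent, and they were also compared directly. No gene was called between them by limma (0% of all genes), and 19 of the 48 had an unadjusted p under 0.05, against 20% of all genes. The differences furthest from 0 were RSAD2, at 0.87 ± 0.18 higher in CDH2 knockdown with limma adjusted p = 0.125, SAMD9, a relative of SAMD9L, at 0.82 ± 0.27 with limma adjusted p = 0.186, and IFITM1, at -0.68 ± 0.10 with limma adjusted p = 0.115. In 19 genes every CDH2 library lay above both Cx43 libraries, against 21.8% of all genes, and in 10 every one lay below, against 29.1%. Without the block 18 were called, against 21.5%.

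Transcript length and GC content moved with the change in CDH2 knockdown. Across 12251 genes, which are not independent replicates, the log2 fold change had r = 0.402 with log2 length and r = -0.348 with GC content, against 0.071 and -0.178 in Cx43 knockdown. Among the genes past the 8-library threshold, the 3 higher ones had longest transcripts of 3703 to 4613 bases and GC contents of 42.2 to 43.2%, and the 8 lower ones had 844 to 5778 bases and 41.8 to 66.8%. After a correction for both, UBE2L6 was at -0.77, BST2 at -0.61 and IFI6 at -0.50, and IFIT2 at 0.59. UBE2L6, BST2, IFI6, IFIT2, IFIH1 and MX1 kept an adjusted p under 0.05 in limma's test of the corrected values. IFIT1 (0.29), IFI35 (-0.26), LGALS3BP (-0.17), IRF7 (-0.13) and IFITM1 (-0.09) lost it, with limma adjusted p from 0.0778 to 0.603. OAS1 (-0.56), IRF1 (-0.47) and SP100 (-0.41) passed after the correction and not before it, with limma adjusted p of 0.0226, 0.0432 and 0.0239. In all, 2 of the 48 were then called higher, against 7.44% of the 12251 genes, and 7 lower, against 7.21%. The sign turned for ISG15, from -0.26 to 0.08, PARP14, from 0.16 to -0.09, PARP9, from 0.14 to -0.06, IFI16, from 0.07 to -0.06, and USP18, from 0.02 to -0.02. The median of the IFIT genes went from 0.35 to 0.23 and the median of the IFITM genes from -0.35 to -0.07. For the genes that sense or bind double-stranded RNA the median went from 0.39 to 0.24, and EIF2AK2 went from 0.36 to 0.08. The correction was fitted with 3 residual degrees of freedom and not repeated over 2 directions.

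**Figure D4:**
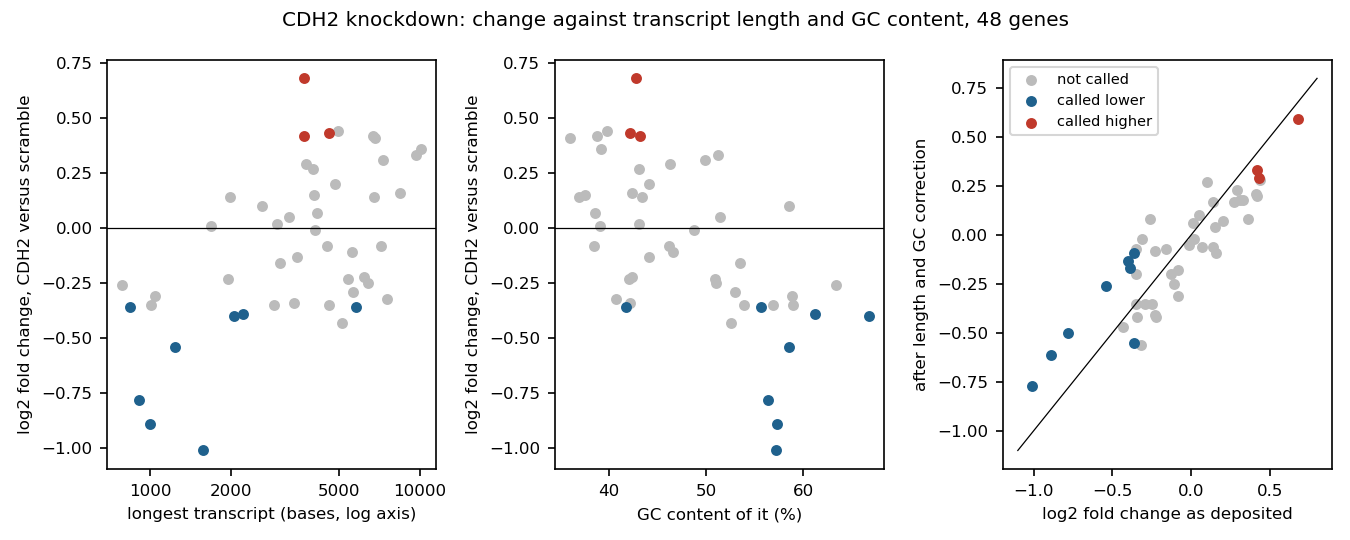
Log2 fold change in CDH2 knockdown (vertical axes of the first 2 panels) of 48 genes against the length of the longest transcript in bases on a log axis and its GC content in percent, and, in the third panel, the corrected against the deposited log2 fold change with the line of equality. Points are coloured by call in the 8-library test; the short, GC-rich genes UBE2L6, BST2 and IFI6 lie lowest before correction and are at -0.77, -0.61 and -0.50 after it, where OAS1 at -0.56 and MX1 at -0.55 lie below IFI6.

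Levels per kilobase were taken over the union of all annotated exons of a gene. In scramble, ISG15 was highest, at a mean of 265 CPM per kb, before LGALS3BP at 90.5 and IFITM3 at 49.4. The union was longer than the longest transcript, at 3422 against 2202 bases for LGALS3BP and 2844 against 1044 for IFITM3. For ISG15 it was 867 against 787 bases. The gaps between genes thus depend on the length used. BST2 went from a mean of 38.2 in scramble to 20.2 in CDH2 knockdown, and UBE2L6 from 24.7 to 12.1. IFIT2 went from 31.2 to 50.1. These levels compare genes per length, while the changes above compare libraries.

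Genes around the pathway were counted from lists. Of 14 receptors, kinases and brakes with values, 1 passed the 8-library test in CDH2 knockdown, as lower, and none in Cx43 knockdown. It was SOCS1, which inhibits the receptor kinases, at -0.63 with limma adjusted p = 0.0418, and at -0.82 with limma adjusted p = 0.0831 in Cx43 knockdown. JAK2 was at 0.66 in CDH2 knockdown, with limma adjusted p = 0.0644. Of 13 genes of nucleic acid sensing upstream of interferon, 2 were lower in that test in CDH2 knockdown, the kinase IKBKE at -0.50 and the ubiquitin ligase RNF135 at -0.42. Of 42 other interferon-induced genes with values, 3 were higher (GBP5 at 0.66, TRIM14 at 0.51 and PNPT1 at 0.34) and 3 lower (APOBEC3F at -0.72, APOL1 at -0.61 and NMI at -0.43), and their median was -0.07. The 3 and 3 of 42 are near the shares of all genes in this test, 7.29% higher and 6.98% lower, and the lists of 14 and 13 are too short to be read against them. With the spread over 2 directions none of these list genes passed, with limma adjusted p from 0.0529 for APOL1 to 0.18 for PNPT1 in CDH2 knockdown.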

How the data were processed

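Ribosomal RNA was depleted and libraries were sequenced. Reads were aligned by the authors with STAR to hg38 and quantified in Partek Flow. The authors removed 1 low-quality sample, took log2(CPM + 1), removed the effect of 3 sequencing replicates with a shrinkage model and dropped low genes. The deposited values are thus log2 values, and they hold no counts, so depth is unknown and no interval that needs it is given. The annotation and strand setting are not given in the sources used here. In each deposited file 1 line named no gene and was dropped.

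Groups and replicate numbers came from the labels. All 8 libraries were fitted with limma 3.58.1 in R 4.3.3 with group and replicate number as a block. Within a replicate number, deviations from the group means sum to at most 1e-04, as a removed batch term leaves them, so same-numbered libraries cannot be checked for pairing independently. The model has 3 residual degrees of freedom but the residuals vary in 2 directions, to within rounding, because scramble 1 follows from the other libraries. This was found after the design was set, so the planned test is reported with 2 others beside it. In the first, added after seeing the data, the residual sum of squares was divided by 2 and limma was given 2 residual degrees of freedom. Scramble 1 still counted there as a full library. In the second, scramble 1 was left out. Other alternatives were no block, quantile or median scaling, a filter keeping 75% of genes, a pseudocount of 0.1, a variance trend, only the compared groups, each library left out, and a correction for transcript length and GC content, also added after seeing the data.

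The genes and lists were chosen with earlier results of these data known. Values per library are given for genes with an adjusted p under 0.05 in either knockdown, the largest change of each group of function in each knockdown, and genes whose every library of a knockdown lay above scramble. The scripts were tested on simulated data.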

Additional observations from a re-analysis of the deposited data

Results flagged for a closer look

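In 3 genes every CDH2 library lay beyond every scramble library on one side and both Cx43 libraries lay beyond it on the other. The share of all genes with this pattern was not counted, so the count of 3 cannot be read as many or few. For each direction alone, 27.1% of all genes lay above scramble without overlap in CDH2 knockdown and 24.8% below. In Cx43 knockdown these shares were 31.4% and 21.4%. IFIT3 was higher in CDH2 and lower in Cx43 knockdown, and the direct difference between the knockdowns was 0.37 ± 0.09 (SE, limma adjusted p = 0.148). IFITM1 was lower in CDH2 and higher in Cx43 knockdown, with a difference of -0.68 ± 0.10 (limma adjusted p = 0.115). IFITM2 had the same order, with a difference of -0.55 ± 0.11 (limma adjusted p = 0.125). None of these differences passed the threshold, and all 3 tests count scramble 1 as a separate library. After the length and GC correction, the changes in CDH2 knockdown were 0.17 for IFIT3, -0.09 for IFITM1 and -0.07 for IFITM2. In Cx43 knockdown the corrected changes were -0.18, 0.39 and 0.28.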

How the results depend on the processing

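The count of genes called depends on several settings, and the share of all genes called moved with it (in parentheses). In CDH2 knockdown 11 of 48 were called with all 8 libraries (14.3%), 3 with the spread over 2 directions (2.29%), 0 with only the groups compared (0%), 27 with no replicate block (43.3%) and 3 with the fold change of the methods (2.06%). With the length and GC correction 9 were called (14.7%). Leaving out 1 library gave 0 to 23, with 0 without scramble 1 (0.0773%) and without CDH2 1 or CDH2 2 (0% each), 9 without scramble 2 (12.1%) and 23 without scramble 3 or CDH2 3 (41% each). Without Cx43 1 or Cx43 2 this comparison is the same fit as with only the groups compared, because the Cx43 library left is alone in its group. Leaving out scramble 3 or CDH2 3 gives the same fit in every comparison, because the other is then alone in its replicate number. These are not separate checks. In Cx43 knockdown the 1 call (1.21%) became 0 over 2 directions (0.634%), 0 with the filter (0.0412%), 16 with no replicate block (24.3%), 13 with only the groups compared (21.7%), 3 with quantile scaling (1.34%), 2 with the trend (1.28%) and 3 with the length and GC correction (3.52%). Leaving out 1 library gave 0 to 11, with 4 without scramble 2 (3.62%), 11 without scramble 3 or CDH2 3 (16.5% each) and 0 for the others (at most 0.0386%). Between the knockdowns, 0 became 18 with no replicate block (21.5%) and 7 with only the groups compared (4.32%), and leaving out 1 library gave 0 to 15, with 8 without scramble 2 (6.69%) and 15 without scramble 3 or CDH2 3 (16.5% each). Medians were steadier: leaving out 1 library gave -0.13 to -0.06 in CDH2 knockdown, -0.20 to -0.11 in Cx43 knockdown and 0.02 to 0.06 between them, where the length and GC correction gave 0.02. Among the genes given by library, some changes near 0 turned sign: with that correction, USP18 in CDH2 knockdown (-0.02) and, in Cx43 knockdown, IFIT1 (-0.06, and -0.02 with quantile scaling), IFIT2 (0.00), IFIT5 (-0.02) and IFIH1 (-0.05). With 1 library left out, SAMD9L ranged from -0.45 to 0.25, DHX58 from -0.04 to 0.22 and USP18 from -0.03 to 0.08 in CDH2 knockdown, and in Cx43 knockdown DDX58 from -0.01 to 0.18, HERC6 from -0.09 to 0.01, IFIH1 from -0.04 to 0.07, IFIT2 from -0.09 to 0.17 and IRF7 from -0.08 to 0.02. The causes were not tested.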
